A study of Homo sapiens with 6 samples.

Results

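The genes described here build the early secretory pathway, which carries new proteins into the endoplasmic reticulum (ER) and on to the Golgi. They were chosen by name: gene symbols that begin with SEC or TRAPPC and a digit, together with SAR1A, SAR1B and 9 genes of the COPI coat (COPA, COPB1, COPB2, COPE, COPG1, COPG2, COPZ1, COPZ2 and ARCN1). This gave 58 of the 19386 genes in the deposited table. The rule reads names alone, but the family was proposed with earlier values of KCl against control known. The fold changes and calls between these groups are therefore a description, and they are not independent evidence that the family as a whole responded.

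Messenger RNA was measured in AC16 cells, a human line made by fusing adult ventricular cells with virus-transformed fibroblasts and labelled as wild-type cardiomyocytes of the heart. There were 3 libraries of cells kept in 26 mM potassium chloride (KCl) for 16 h and 3 libraries of untreated cells taken at 16 h. The series title links potassium and cardioplegia, the solution that stops the heart in surgery, to NRF2 and protection from oxidative stress. All cells were of 1 line, and the labels leave unsaid whether the 3 libraries of each group were grown apart, so the p-values below reflect library-to-library spread, which may be technical.

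Proteins enter the ER through the SEC61 channel, helped by SEC62 and SEC63, and signal peptidase with its SEC11 subunit cuts off the leading peptide. Vesicles that leave the ER are shaped by the COPII coat. The small GTPase SAR1 recruits SEC23 and SEC24, which select cargo, and SEC13 with SEC31 forms the outer cage at sites that SEC16 organises. COPI coats carry proteins back from the Golgi, TRAPP complexes tether vesicles and switch on RAB GTPases, and SEC22 SNAREs take part in fusion. The SEC14-like proteins share a name and a lipid-binding fold with yeast Sec14 and are not coat proteins.

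Library totals ran from 18886525 to 19159312 estimated reads in KCl and from 18601977 to 19286588 in control. The 58 members took 0.535% to 0.542% of the reads in KCl and 0.514% to 0.521% in control. Defining cardiomyocyte markers were nearly absent. Of 11 such genes 9 stayed below 1 TPM (the authors' level corrected for gene length) in every library, and TNNT2, MYL7 and NPPA were listed at 0 throughout. Their summed level was 0.750 to 1.58 TPM in KCl and 0.690 to 2.33 TPM in control. All 9 fibroblast markers were present, with a summed level, mostly VIM, of 10201 to 10659 TPM in KCl and 9372 to 9759 TPM in control. Against the direction of the sum, COL1A1 had 1445 to 1588 TPM in KCl and 1586 to 1747 TPM in control. Sums for epithelial markers were 533 to 558 TPM in KCl and 368 to 380.5 TPM in control, mostly KRT18. Of 4 leukocyte markers 3 were in the table, and their sums, mostly CD68, were 124 to 133 TPM in KCl and 171 to 185 TPM in control, and all 4 endothelial markers stayed below 1 TPM, with sums of 0.860 to 1.13 TPM in KCl and 0.430 to 0.540 TPM in control. The part of these marker differences in the results below was not tested. In bulk libraries, a change in the share of cells that use a gene and a change in its RNA per cell cannot be told apart.

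Of the 58 members, 53 passed the filter on low counts. The other 5 were SEC14L3, SEC14L5, SEC14L6, SEC16B and TRAPPC3L, and none of them exceeded 0.321 CPM (read counts scaled to a library total adjusted by TMM) in any library. A gene was called when its Benjamini-Hochberg adjusted p in the edgeR quasi-likelihood test, taken over all 13044 tested genes, was under 0.05. By this rule 19 members were higher and 6 lower in KCl, and 28 were not called. Of all tested genes, 38.0% were called, 20.1% as higher and 18.0% as lower, against 35.8% and 11.3% of the tested members. All 3 KCl libraries lay above all 3 control libraries at 19 members and below them at 9, where the shares over all tested genes were 24.5% and 23.3%. The changes were small. The median log2 fold change (KCl over control) of the members was 0.05, against -0.005 for all tested genes, and the most extreme members were SEC14L1 at 0.55 and COPZ2 at -0.54. No member reached a 2-fold change, whereas 248 of all tested genes did. The share of higher calls was smaller on the length-corrected values. A limma fit to the authors' log2(TPM + 1) called 12 members higher and 9 lower, where 34.6% of all tested genes were called, 14.3% as higher and 20.4% as lower. Of the 19 members called higher on counts, 12 were also called higher on TPM and all 19 had a positive TPM fold change, and the 6 called lower were called lower on both.

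**Figure D1:**
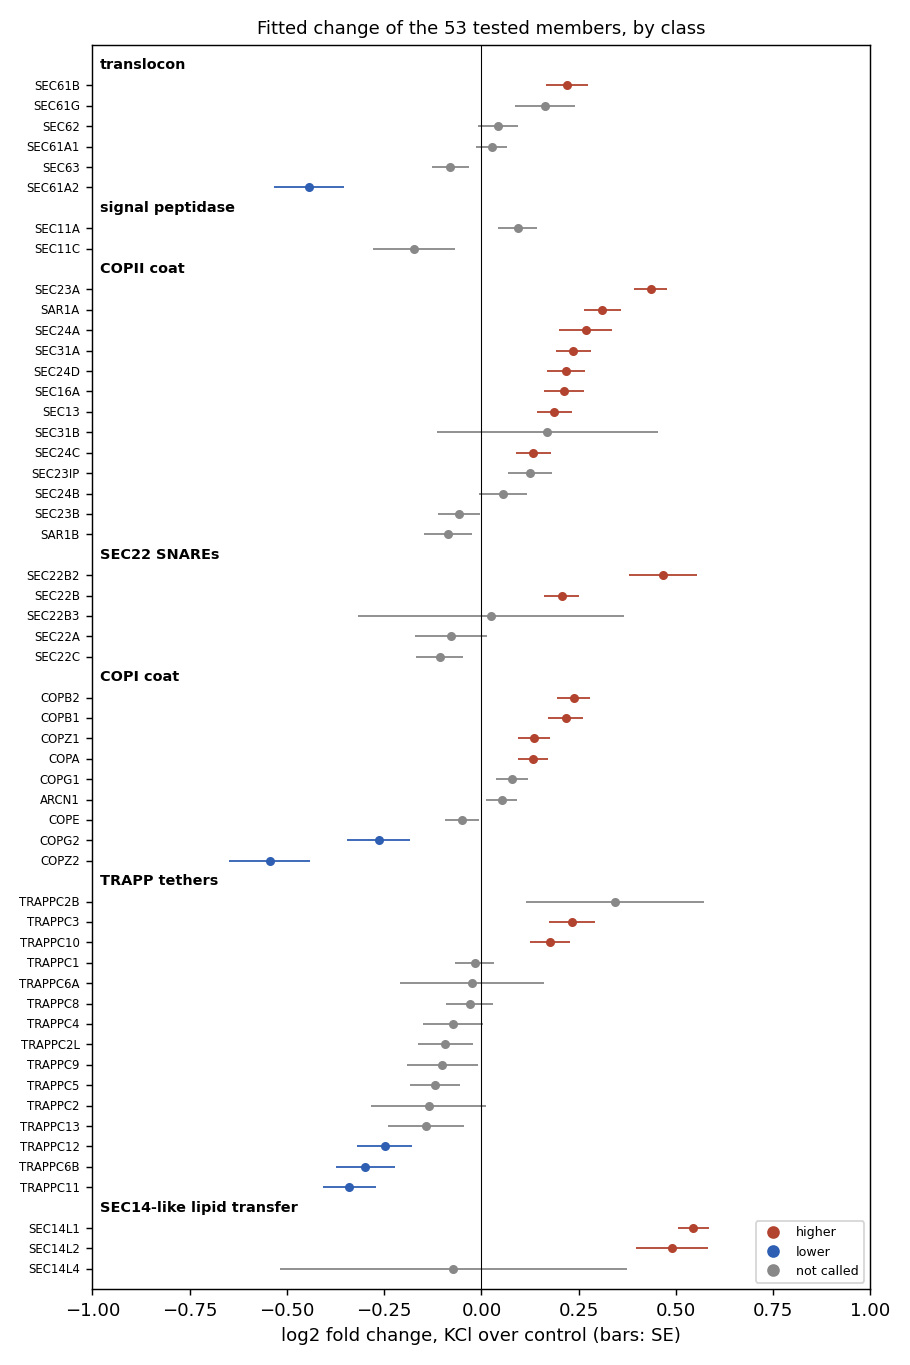
Fitted log2 fold change of KCl over control for the 53 tested members, grouped by class, with bars for the standard error and colour for the call. The COPII points run from -0.09 to 0.43 with 8 calls, all higher, whereas the COPI and TRAPP classes hold calls on both sides of 0.

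The COPII coat was the class with the most higher calls. The class median was 0.19 on the log2 scale. Of its 14 genes 13 were tested and 8 were higher (61.5%). Over all tested genes, 20.1% were higher and 18.0% lower. The edgeR test called 0 COPII genes lower, 0 were lower at an unadjusted p under 0.05, and DESeq2 and limma-voom also called 0 lower. SEC23A, the inner coat subunit that speeds up GTP hydrolysis by SAR1, had 162, 162 and 165 CPM in KCl and 119.6, 123.3 and 119 CPM in control. All KCl libraries were above all control libraries, and the log2 fold change was 0.43 ± 0.04 (SE). Its paralog SEC23B had 92.0, 82.7 and 91.8 CPM in KCl and 86.5, 97.6 and 93.2 CPM in control. The groups overlapped at SEC23B, which was not called (-0.06 ± 0.05).

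The 2 SAR1 genes showed the same kind of contrast. SAR1A had 131, 130.4 and 133 CPM in KCl and 108, 110.2 and 99.6 CPM in control (log2 fold change 0.31 ± 0.05). SAR1B had 52.2, 47.5 and 48.4 CPM in KCl and 49.95, 55.8 and 51.6 CPM in control, with overlapping groups and no call (-0.09 ± 0.06). SAR1B counts were not whole numbers in any library, so some of its reads had been shared out before deposit. Its 5′ end overlaps the start of SEC24A on the other strand (GENCODE on GRCh38, chr5:134601144-134649271 for SAR1B and chr5:134648789-134727823 for SEC24A). The sources used here do not give whether counting was stranded. SEC24A counts were whole in every library, and which entry shared the SAR1B reads is not given. The effect of the overlap on either gene was not tested.

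The cargo-binding SEC24 family has 4 genes, of which 3 were called higher, where 20.1% of all tested genes were. SEC24A had 55.6, 64.4 and 56.7 CPM in KCl and 46.2, 46.7 and 53.8 CPM in control (0.27 ± 0.07). SEC24D had 98.6, 107 and 103 CPM in KCl and 88.7, 86.6 and 90.4 CPM in control (0.22 ± 0.05). For SEC24C the values were 136, 141 and 146 CPM in KCl and 127, 128 and 130.4 CPM in control (0.13 ± 0.04). The groups did not overlap at these 3 genes. SEC24B overlapped, at 42.7, 45.6 and 46.0 CPM in KCl and 42.1, 42.3 and 44.8 CPM in control (0.06 ± 0.06, not called).

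The outer cage and the exit-site scaffold were also higher. SEC31A had 269, 298 and 271 CPM in KCl and 233, 232 and 245 CPM in control (0.24 ± 0.04). SEC13, which also serves in the nuclear pore, had 146, 142 and 139.8 CPM in KCl and 128, 122.5 and 125 CPM in control (0.19 ± 0.04). SEC16A, which marks ER exit sites, had 192, 208 and 199 CPM in KCl and 167, 161 and 189.6 CPM in control (0.21 ± 0.05), with control replicate 3 close to the KCl libraries. SEC23IP, a SEC23 partner, was at 0.13 ± 0.06 and SEC31B, at 1.33 TPM in KCl and 1.21 TPM in control, was at 0.17 ± 0.28, and neither was called. Summed over the class, the level per length was 873, 926 and 889 TPM in KCl and 789.6, 777 and 817 TPM in control, with no overlap. SEC24A, SEC24C and SEC16A were not called on log2(TPM + 1), which left 5 COPII genes higher and 0 lower. The SEC24C call on counts was also lost without KCl replicate 3, without control replicate 1 and without control replicate 2 (edgeR adjusted p = 0.101, 0.0846 and 0.0526, where the 15 alternatives together spanned 0.0178 to 0.296).

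**Figure D2:**
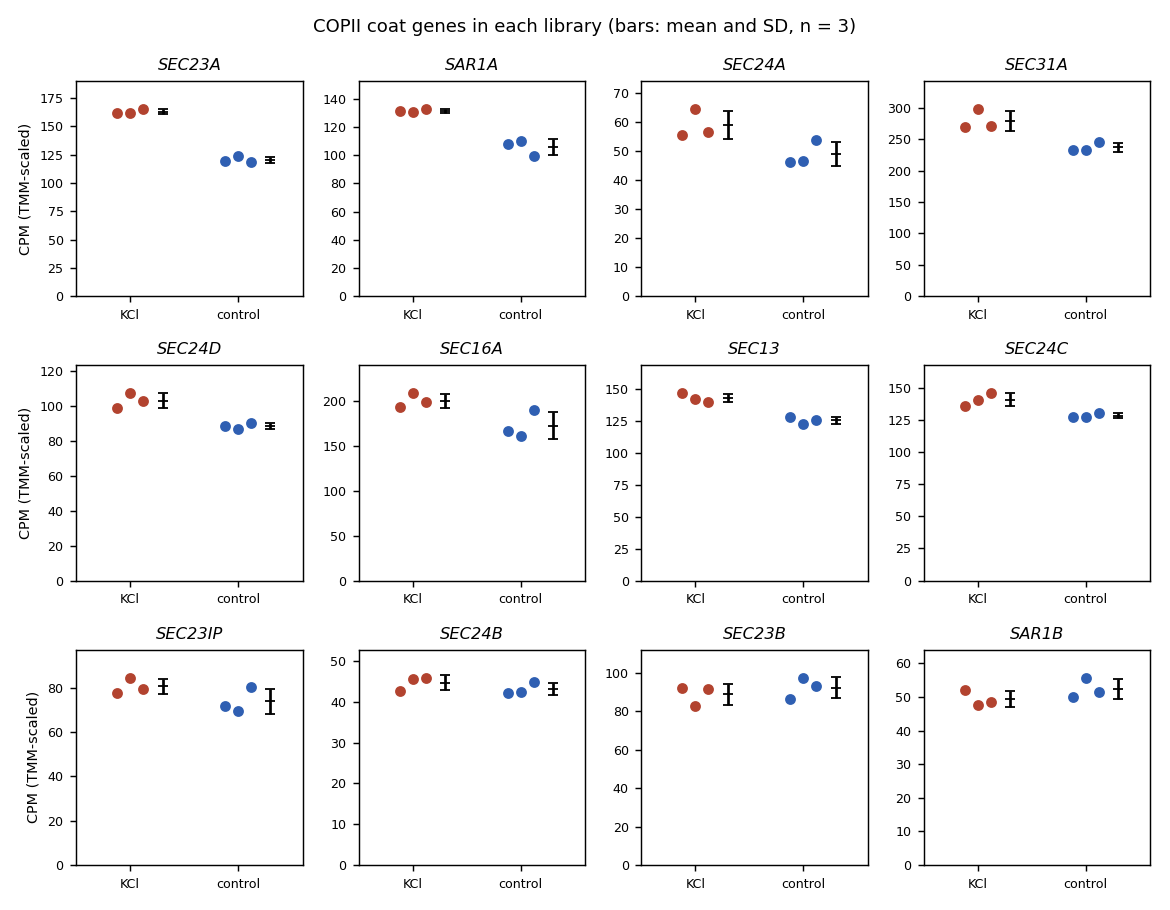
TMM-scaled CPM of 12 COPII genes in each library (points), with mean and SD (n = 3) beside them and KCl at the left of each panel. At the first 8 genes every KCl point is above every control point, and at SEC23IP, SEC24B, SEC23B and SAR1B the groups overlap.

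The COPI coat went both ways, with 4 of 9 genes higher (44.4%), 2 lower (22.2%) and 3 not called. Over all tested genes, 20.1% were higher and 18.0% lower. The beta subunits were COPB2, at 196, 202 and 191 CPM in KCl and 166, 171 and 162 CPM in control (0.24 ± 0.04), and COPB1, at 144, 146 and 148 CPM in KCl and 127, 128 and 121 CPM in control (0.22 ± 0.04). The alpha subunit gene COPA had 394, 417 and 402 CPM in KCl and 366, 376 and 365 CPM in control (0.13 ± 0.04), and COPZ1, the main zeta subunit, was at 0.14 ± 0.04. These 4 genes had no overlap between the groups. The second zeta gene, COPZ2, moved the other way. It had 13.6, 9.96 and 12.8 CPM in KCl and 17.2, 18.8 and 17.1 CPM in control, a log2 fold change of -0.54 ± 0.10. The second gamma gene COPG2 was lower too, with 20.3, 23.3 and 25.4 CPM in KCl and 28.3, 27.8 and 26.8 CPM in control (-0.26 ± 0.08), and leaving out KCl replicate 1 ended its call (edgeR adjusted p = 0.103). The main gamma subunit COPG1 (0.08 ± 0.04), the delta subunit ARCN1 (0.05 ± 0.04) and the epsilon subunit COPE (-0.05 ± 0.04) were not called. Summed COPI level overlapped between the groups, at 1323, 1344 and 1334 TPM in KCl and 1335, 1304 and 1317 TPM in control. On counts, leaving out control replicate 1 ended the calls of COPA and COPZ1 (edgeR adjusted p = 0.0536 and 0.0677), and leaving out KCl replicate 1 that of COPZ1 (0.0606). COPA and COPZ1 were not called on log2(TPM + 1), which left 2 COPI genes higher and 2 lower.

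Promoters of the members were searched for letters that stress factors of the ER and NRF2 are known to bind. RefSeq promoters on build GRCh38.p14, from 250 bases before to 50 after a gene start, were found for 53 of the 58 members. On either strand, TGACGTGG, the unfolded protein response element that XBP1 and ATF6 bind, was present at 8 of these 53 genes (15.1%), against 253 of 27305 genes with a promoter in the table (0.927%). Over the tested genes with a promoter, it was present at 7 of 48 members and at 128 of 10610 genes (1.21%). The longer ER stress elements, CCAAT and CCACG with 9 bases between them and ATTGG and CCACG with 1 base between them, were found at 0 of 53 members and at 0.0916% and 0.0696% of all genes. The antioxidant response core TGACNNNGC, bound by NRF2, was present at 13 of 53 members (24.5%) and 16.1% of all genes. The element and the core overlap where TGACGTGG is followed by C, as at SEC16A, SEC16B, SEC23A and SEC24A. Of the 8 genes with TGACGTGG, 6 were called higher (COPA, COPB1, COPB2, SEC16A, SEC23A and SEC24A), SEC62 was not called and SEC16B was not tested. Of all 128 tested genes with the letters, 43 were called higher and 21 lower. The letters were present at 6 of the 17 members called higher and 1 of the 25 not called, against 43 of 2104 (2.04%) and 64 of 6555 (0.976%) over all tested genes. The members were proposed with this contrast known, so nothing is read from the counts. A match is a run of letters and not a measured binding site, and members without one are described only over this window.

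The 30 bases around each match are shown to place the letters that chose these 8 promoters in their different surroundings. Each reads 5′ to 3′ along its gene, and capitals mark the match on either strand.
COPA: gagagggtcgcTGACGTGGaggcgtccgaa
COPB1: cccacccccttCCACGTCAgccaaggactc
COPB2: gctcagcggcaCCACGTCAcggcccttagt
COPB2: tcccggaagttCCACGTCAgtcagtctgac
SEC16A: tggccctggtgCCACGTCAgccggactgaa
SEC16B: ttctgggcagcTGACGTGGcaacacagttt
SEC23A: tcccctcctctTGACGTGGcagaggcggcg
SEC24A: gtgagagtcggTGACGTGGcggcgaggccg
SEC62: ccctcctcgctCCACGTCAgagggaaccgg
These windows lie at chr1:160343227-160343256 (COPA, minus strand), chr11:14499841-14499870 (COPB1, minus), chr3:139389825-139389854 and chr3:139389632-139389661 (COPB2, minus), chr9:136484707-136484736 (SEC16A, minus), chr1:177984297-177984326 (SEC16B, minus), chr14:39103221-39103250 (SEC23A, minus), chr5:134648595-134648624 (SEC24A, plus) and chr3:169966779-169966808 (SEC62, plus). At SEC23A the match began 4 bases before the start, at SEC62 17 bases, at SEC16B 31 bases, at COPB1 48 bases and at SEC24A 179 bases before it. At COPA the match began 5 bases after the start and at SEC16A 15 bases after it. These distances are from RefSeq starts, which can differ from the GENCODE gene limits (chr14:39031919-39109646 for SEC23A and chr9:136440096-136483759 for SEC16A). COPB2 had 2 matches, beginning 196 and 3 bases before one of its annotated starts. The 250 bases before that COPB2 start (chr3:139389648-139389897, minus strand) show the first of them in capitals, and the second runs over the start at the end of the stretch.
COPB2: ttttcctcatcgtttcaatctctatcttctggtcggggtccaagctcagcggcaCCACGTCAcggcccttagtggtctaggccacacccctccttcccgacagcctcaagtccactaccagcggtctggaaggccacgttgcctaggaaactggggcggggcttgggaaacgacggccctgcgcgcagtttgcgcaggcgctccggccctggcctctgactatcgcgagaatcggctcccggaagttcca

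Of the 6 translocon genes 1 was higher and 1 lower (16.7% each), near the 20.1% and 18.0% over all tested genes. SEC61A1, the main channel-forming alpha subunit, had 648, 624 and 683 CPM in KCl and 636, 623 and 661 CPM in control (0.03 ± 0.04, not called). The second alpha gene SEC61A2 was lower, at 13.3, 14.97 and 15.2 CPM in KCl and 20.1, 18.4 and 20.5 CPM in control (-0.44 ± 0.09). SEC61B, the beta subunit, was higher, at 70.3, 70.0 and 76.8 CPM in KCl and 61.5, 63.5 and 61.4 CPM in control (0.22 ± 0.05). The groups did not overlap at SEC61A2 or SEC61B. SEC61G, the gamma subunit, had 38.2, 36.2 and 33.4 CPM in KCl and 31.0, 36.0 and 29.1 CPM in control (0.16 ± 0.08). SEC61G was not called, but it was called higher without control replicate 2 (edgeR adjusted p = 0.0161). SEC62 (0.04 ± 0.05) and SEC63 (-0.08 ± 0.05), which joins the channel to the chaperone BiP, were not called. Summed over the 6 genes, the level per length was 1011, 1008 and 1036 TPM in KCl and 972, 990 and 983 TPM in control, with no overlap. The signal peptidase subunits SEC11A (0.09 ± 0.05) and SEC11C (-0.17 ± 0.10) were not called on counts. On log2(TPM + 1), SEC11C was called lower.

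Shares of paralogs within a pair described the same libraries per length. SEC23B made up 35.3%, 32.9% and 35.0% of the summed SEC23 TPM in KCl and 40.8%, 43.8% and 42.1% in control. COPZ2 made up 11.9%, 9.21% and 11.4% of COPZ in KCl and 16.4%, 17.0% and 16.0% in control. In both pairs the less abundant gene had a smaller share in every KCl library than in any control library. The same order, with no overlap, was seen for SAR1B (14.5% ± 0.64 of SAR1 in KCl and 18.3% ± 0.85 in control, SD, n = 3), SEC11C (14.6% ± 1.31 of SEC11 in KCl and 17.1% ± 1.57 in control), COPG2 (8.0% ± 0.52 of COPG in KCl and 9.91% ± 0.44 in control) and SEC61A2 (3.17% ± 0.25 of SEC61 alpha in KCl and 4.30% ± 0.13 in control). The SEC11C groups nearly met, at 15.77% in KCl replicate 3 and 15.81% in control replicate 2. SEC23B, SAR1B and SEC11C were themselves not called on counts. No such count was made for other gene pairs. Of single tested genes, 47.8% had no overlap in CPM in either direction, and 23.3% had every KCl library below every control library. The smaller share without overlap was seen in 6 of the 9 pairs. The groups overlapped in the other 3, for TRAPPC6A, at 38.8% ± 2.19 of TRAPPC6 in KCl and 35.4% ± 1.47 in control, for SEC31B, at 0.922% ± 0.153 of SEC31 in KCl and 0.968% ± 0.466 in control, and for SEC16B, at 0.119% ± 0.109 of SEC16 in KCl and 0.208% ± 0.070 in control. Within the SEC24 family, SEC24C held the most, 40.8% ± 1.05 in KCl and 41.7% ± 0.68 in control, and SEC24D came next with 32.8% ± 0.58 in KCl and 31.6% ± 0.40 in control.

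**Figure D3:**
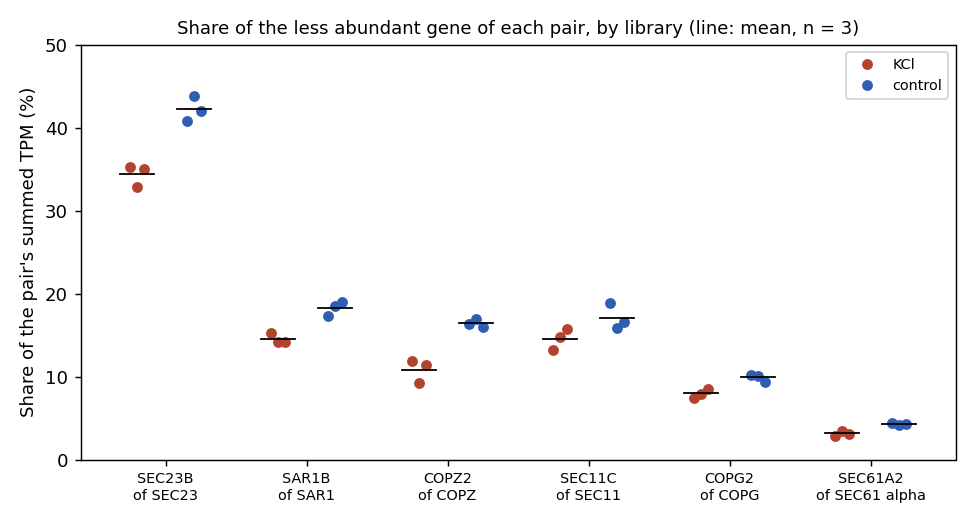
Share of the less abundant gene in the summed TPM of its pair, in percent, for each KCl library (left) and control library (right), with a line at the mean (n = 3). The 6 pairs drawn are those of 9 in which the KCl points all lie below the control points, from 34.4% against 42.2% at SEC23B to 3.17% against 4.30% at SEC61A2.

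TRAPP tether genes were called on both sides. Of 16 genes 15 were tested, 2 were higher, 3 lower and 10 not called, with a median of -0.09. The 3 lower calls were 20% of the class, near the 18.0% over all tested genes. TRAPPC11 and TRAPPC12, subunits found in TRAPPIII but not in TRAPPII, were both lower. TRAPPC11 had 30.1, 32.7 and 31.2 CPM in KCl and 41.8, 39.9 and 37.2 CPM in control (-0.34 ± 0.07). TRAPPC12 had 25.7, 24.9 and 25.5 CPM in KCl and 29.8, 30.6 and 30.02 CPM in control (-0.25 ± 0.07). The other TRAPPIII subunits, TRAPPC8 (-0.03 ± 0.06) and TRAPPC13 (-0.14 ± 0.10), were not called. Among the 8 genes of the shared core, TRAPPC6B was lower, with 24.7, 23.3 and 22.8 CPM in KCl and 27.0, 30.7 and 29.6 CPM in control (-0.30 ± 0.08), and TRAPPC3 was higher, with 72.6, 69.4 and 66.7 CPM in KCl and 57.6, 64.3 and 55.7 CPM in control (0.23 ± 0.06). The groups did not overlap at any of these 4 called genes. Of the TRAPPII subunits TRAPPC10 was higher (0.18 ± 0.05) and TRAPPC9 was not called (-0.10 ± 0.09). TRAPPC10 was not called on log2(TPM + 1), nor on counts when control replicate 2 was left out (edgeR adjusted p = 0.0641). TRAPPC5 was not called on counts, though all its KCl libraries lay below all control libraries. On log2(TPM + 1) it was called lower (-0.18, limma adjusted p = 0.0131), and the class had 1 higher and 4 lower calls. Over all tested genes, 14.3% were higher and 20.4% lower on that scale. TRAPPC1 had the highest level per length of all members, 579 ± 21.4 TPM in KCl and 607 ± 54.6 TPM in control, and was not called. TRAPPC2 and its copy TRAPPC2B had counts that were not whole in all 6 libraries, and their own shares of reads are uncertain.

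SEC22B, the SNARE of ER-to-Golgi vesicles, was higher, with 136, 132 and 127 CPM in KCl and 113, 115 and 113 CPM in control (0.21 ± 0.05). The entries named for copies of it, SEC22B2 (0.47 ± 0.09, called) and SEC22B3 (0.02 ± 0.34, not called), had counts that were not whole in every library, as did SEC22B. Reads of these entries had been split with other entries, which the table does not name, so the value of each is uncertain. SEC22A (-0.08 ± 0.09) and SEC22C (-0.11 ± 0.06) were not called on counts. SEC22C was lower on log2(TPM + 1), at 29.4, 31.5 and 29.8 TPM in KCl and 39.5, 39.0 and 36.8 TPM in control (log2 fold change -0.34 on that scale), so its 2 deposited measures gave changes of different size.

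Outside the coats, SEC14L1 had the largest rise of any member on counts. It had 312, 326 and 332 CPM in KCl and 219.9, 219 and 226 CPM in control (log2 fold change 0.55 ± 0.04). SEC14L2, also known as supernatant protein factor, an activator of squalene epoxidase in cholesterol synthesis, had 24.4, 20.6 and 22.7 CPM in KCl and 14.3, 17.7 and 16.2 CPM in control (0.49 ± 0.09). The groups did not overlap on CPM at either gene. On log2(TPM + 1) the SEC14L2 fold change was 0.25, and the call was lost (limma adjusted p = 0.0541). SEC14L4 was barely detected, at no more than 0.843 CPM, and was not called. Without the SEC14-like genes, 17 of 50 tested members were higher and 6 lower.

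Other genes of the pathway that the name rule leaves out were counted in 7 lists. Among 33 tested ER exit and cargo receptor genes, 12 were higher (36.4%) and 4 lower (12.1%), and the median was 0.04. Over all tested genes, 20.1% were higher and 18.0% lower. KDELR3 and KDELR2, receptors that return ER proteins from the Golgi in COPI vesicles, had log2 fold changes of 0.50 ± 0.05 and 0.33 ± 0.04, and ERGIC1, a protein of the ER-Golgi intermediate compartment, had 0.29 ± 0.04. KDELR3 had 130.1, 118 and 119 CPM in KCl and 85.1, 87.1 and 87.9 CPM in control. The clathrin coat and its adaptors, which work at later steps, had 7 of 25 genes higher and 3 lower (median 0.05), with CLTC, the heavy chain, at 0.20 ± 0.04, the adaptor subunit AP1S2 at 0.32 ± 0.07 and AP3S2 at -0.40 ± 0.07.

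The next 3 lists were split evenly, and their shares were near those over all tested genes. Translocon and ER targeting partners had 8 of 38 genes higher and 8 lower (median -0.03). OSTC, a subunit of oligosaccharyltransferase, had 61.2, 58.0 and 58.7 CPM in KCl and 36.3, 40.8 and 37.2 CPM in control (0.64 ± 0.06). TRAM1, a translocon neighbour, rose by 0.29 ± 0.04, and KRTCAP2, another oligosaccharyltransferase subunit, was lower (-0.41 ± 0.06). ARF and RAB regulators had 4 of 18 genes higher and 4 lower (median 0.02), with ARF4 at 0.35 ± 0.04, ARF5 at -0.23 ± 0.05 and ARFGAP2 at -0.33 ± 0.07. Other tethers and SNAREs of the ER and Golgi had 7 of 34 genes higher and 7 lower (median 0.01), with the golgins GOLGA3 at 0.34 ± 0.06 and GOLGA1 at -0.52 ± 0.07 and the tether USO1 at 0.23 ± 0.05.

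In the exocyst, the tether of the cell surface, 1 of 9 genes (11.1%) was higher (EXOC6B, 0.31 ± 0.06). By edgeR, limma-voom and DESeq2, or at an unadjusted p under 0.05 in edgeR, 0 exocyst genes were lower. Over all tested genes, 20.1% were called higher and 18.0% lower. Of 10 transcription factors and proteases of ER stress, 2 were higher and 4 lower (median -0.04). MBTPS1, a protease that releases ATF6, had a log2 fold change of 0.17 ± 0.04 and was not called on log2(FPKM + 1) (limma adjusted p = 0.098). The other protease of that step, MBTPS2, was at -0.35 ± 0.06 and ATF6 itself at -0.17 ± 0.04. XBP1, named here after its value was seen because it binds TGACGTGG, had 418, 402 and 425 CPM in KCl and 452, 453 and 443 CPM in control (-0.11 ± 0.04, called lower). Its call was absent when KCl replicate 2 or control replicate 1 was left out (edgeR adjusted p = 0.0826 and 0.0741). Counts per gene do not separate transcript forms of XBP1 and do not measure its protein.

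**Figure D4:**
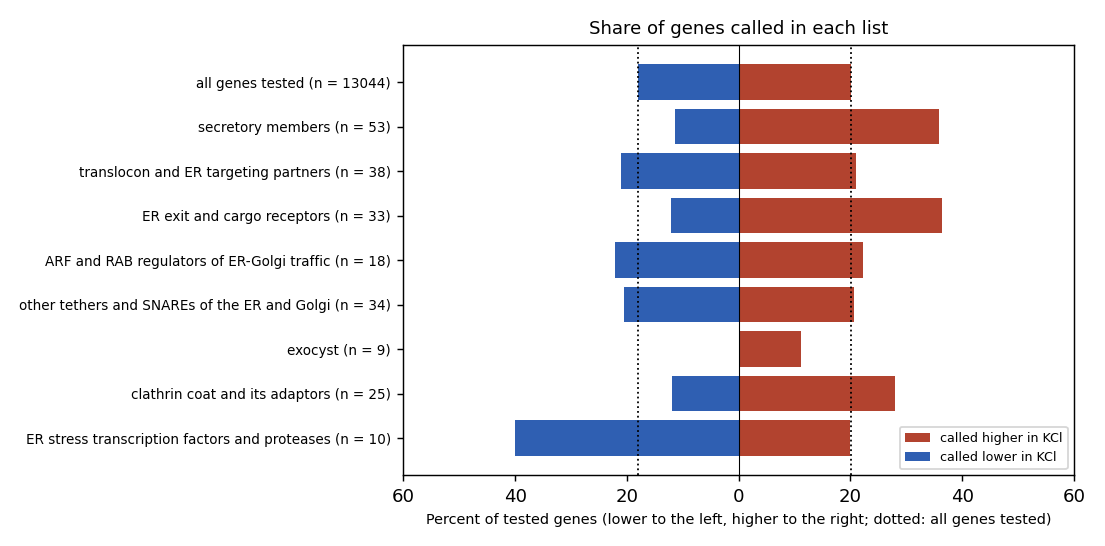
Percent of tested genes called higher (right) and lower (left) in KCl for all genes, the members and the 7 other lists, with dotted lines at the shares over all tested genes. The members have 35.8% higher and 11.3% lower, and the ER exit and cargo receptors 36.4% higher and 12.1% lower.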

How the data were processed

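The deposited table holds 3 values per gene and library. Estimated counts were deposited by the authors without normalization, and 11.3% to 11.9% of them in a library were not whole. TPM and FPKM were computed and deposited by the authors. Per the submitters' processing notes the genome was GRCh38.p12, and the libraries were strand-specific per the labels' protocols. No source used here gives the aligner or counter. Which columns held KCl and which control was settled through the authors' group means, which differed from the column means by at most 3.3e-10.

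The rounded counts went into edgeR 4.0.16 (R 4.3.3, TMM, filterByExpr with minimum count 10 and minimum total 15, robust quasi-likelihood F test, two-sided, Benjamini-Hochberg over 13044 genes). The standard error is the size of the log2 fold change divided by the square root of F. CPM uses TMM-scaled totals. The fit was tested on simulated data, whose changed genes had larger changes than most members here, so recovery of small changes was not tested. Alternatives used RLE factors, DESeq2 1.42.0, limma 3.58.1, other filters, a replicate block and each library left out. A count of 0 allows up to 3 reads, or 0.156 to 0.161 CPM, and covers counting error only.

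Members and lists were chosen with earlier results of these data known. Within each class the 4 tested genes with the smallest p are named, plus the SAR1, SEC23, SEC24 and SEC61 genes. Members beyond these were chosen after their values were seen. From each other list up to 3 called genes with the smallest p are named. Replicate pairs differed by more than sampling noise (chi-square per gene 3.05 to 4.53). Promoter sequences were matched by gene ID.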

Additional observations from a re-analysis of the deposited data

How the results depend on the processing

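Of 25 called members, 17 kept direction and call under all 15 alternatives, and of the 50 genes named by rule 38 did. With all libraries, edgeR under TMM or RLE factors, limma-voom and DESeq2 each called 19 members higher and 6 lower on counts. Fits to the authors' TPM and FPKM gave fewer higher calls, and the cause was not tested. The TMM factors on counts were 0.976, 0.984 and 0.977 in KCl and 1.021, 1.022 and 1.021 in control. Their part in the small positive median on counts was not tested. Members called higher numbered 12 on log2(TPM + 1), on log2(TPM + 0.1) and on log2(FPKM + 1), and their median log2 fold change was 0.0156, 0.0163 and -0.0077, against 0.05 on counts. The median of all tested genes was itself -0.04 on log2(TPM + 1) and -0.06 on log2(FPKM + 1). With 1 library left out, members called higher ranged from 16 to 20, members called lower from 5 to 6 and their median from 0.0433 to 0.0883. On log2(FPKM + 1), 1594 of all tested genes were higher, as were 4 translocon partners, 1 ARF or RAB regulator, 2 other tethers and SNAREs, 3 clathrin genes and 0 ER stress genes, and 1 exocyst gene and 5 clathrin genes were lower. On both TPM scales, 3 other tethers and SNAREs and 1 ER stress gene were higher. With 1 library left out, other tethers and SNAREs called higher ranged from 3 to 6 and ER stress genes called lower from 2 to 5.

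The members that changed sign were not called with all libraries. SEC61A1 was at -0.0093 on both TPM scales and -0.0384 on log2(FPKM + 1), and between -0.0087 and 0.0574 with 1 library left out. SEC24B was at -0.0121 on log2(FPKM + 1). With 1 library left out, SEC22A ranged from -0.155 to 0.0069 and SEC14L4 from -0.279 to 0.27. Of members outside the naming rule, SEC31B was at -0.11 without control replicate 1, and SEC22B3 at -0.25 without control replicate 2 and -0.0044 on log2(TPM + 1). SEC62 and ARCN1 were at -0.02 and -0.0077 on log2(FPKM + 1). Without control replicate 3 TRAPPC1 was at 0.0361, and without control replicate 2 TRAPPC6A was at 0.0728.

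Libraries of the 2 groups share replicate numbers, but same-numbered libraries did not deviate together (correlations -0.004, -0.006 and 0.048). The main fit left the numbers out. Whether same-numbered libraries were handled together is not given in the labels, and these correlations cannot exclude it. A fit with the replicate block called 19 members higher and 6 lower, and 2715 of all tested genes higher and 2425 lower. Depth limits statements on SEC14L4, SEC31B and the 5 untested members, which had few reads.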
